A study of Rattus norvegicus with 20 samples.

Results

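The mitochondrial genome encodes a small set of respiratory chain proteins, and the results below concern 6 of its genes: cytochrome b of complex III (Mt-cyb, ENSRNOG00000031766), the catalytic core subunits of cytochrome c oxidase (Mt-co1, ENSRNOG00000034234; Mt-co2, ENSRNOG00000030371; Mt-co3, ENSRNOG00000030700) and the membrane subunits of ATP synthase (Mt-atp6, ENSRNOG00000031979; Mt-atp8, ENSRNOG00000033299). They were chosen by a fixed list of IDs paired with these symbols, and all 6 were present among the 24059 gene IDs of the table, so 0 were missing. Ventricular RNA of 20 male Sprague Dawley rats was sequenced, from animals 9 weeks old per the labels and with 5 rats in each of 4 groups. The study asked how loss of Vegfb, which encodes vascular endothelial growth factor B, alters the diabetic heart. Wildtype (WT) control and VegfbKO control rats were not diabetic, whereas WT diabetic and VegfbKO diabetic rats had received an intravenous injection of 55 mg/kg streptozotocin (STZ), a toxin of insulin-producing beta cells, and were sampled on day 4 of diabetes. VegfbKO rats carried a lacZ cassette placed in the Vegfb gene with zinc-finger nucleases, so the gene was disrupted in every tissue, and the WT rats were littermates. The level of Vegfb itself was not analysed here, because no table at hand pairs the other IDs with gene names.

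Mitochondrial DNA is transcribed as long polycistronic RNAs that are cut into separate messages, so these genes share promoters but can differ in the stability of their mature RNA. Electrons pass from complex III through cytochrome c to complex IV, where oxygen is reduced, and ATP synthase uses the resulting proton gradient to make ATP. Cardiac muscle is densely packed with mitochondria, and messages from the mitochondrial genome make up a large part of its RNA.

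Library totals ranged from 7220469 to 26664479 estimated counts with a median of 20746736, and the 6 genes together took between 11.6% and 27.0% of each library. Their summed share of the library was 23.6, 23.8, 25.3, 19.1 and 20.8% in WT control replicates 1 to 5. It was 19.6, 12.1, 20.4, 20.8 and 25.4% in WT diabetic rats. The values in VegfbKO control rats were 27.0, 22.9, 18.7, 21.3 and 18.5%. VegfbKO diabetic rats had 11.6, 22.9, 24.7, 15.9 and 20.1%. The groups overlapped, and the means ± SD (n = 5) were 22.5 ± 2.49% in WT control, 19.7 ± 4.80% in WT diabetic, 21.7 ± 3.49% in VegfbKO control and 19.0 ± 5.29% in VegfbKO diabetic rats.

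The lowest summed shares belonged to libraries that stood apart from the rest, WT diabetic replicate 2 and VegfbKO diabetic replicate 1. Other IDs that exceeded 2% of any library numbered 7, and together they held 40.2% of the first library and 43.5% of the second, against 5.34 to 14.1% in the other 18. The most abundant in this pair was ENSRNOG00000065867, at 23.3 and 25.5% against 5.28% or less elsewhere, followed by ENSRNOG00000070284 (7.21 and 7.74%, against 1.67% or less) and ENSRNOG00000062930 (6.60 and 7.12%, against 1.56% or less). The remaining 4 of the 7 had their highest shares, 2.44 to 3.02%, in other libraries. Among these 4 was ENSRNOG00000029707 (2.69% in WT control replicate 3), whose pattern was the most like that of the members (r = 0.983). Leaving out all 7 thus also removes an ID that moved with the members. When these 7 IDs were left out of the totals, the summed share became 20.3% in WT diabetic replicate 2 and 20.6% in VegfbKO diabetic replicate 1. On that scale the lowest library was VegfbKO diabetic replicate 4, at 16.9%. Without the pair of libraries the mean share was 21.6% in WT diabetic and 20.9% in VegfbKO diabetic rats. For the comparisons below, counts were given, as planned, as CPM after scaling by the trimmed mean of M values (TMM CPM). The TMM factors were 0.729 and 0.693 in this pair and between 0.935 and 1.17 in the other libraries. Why the 3 named IDs were high in the pair was not tested.

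**Figure D1:**
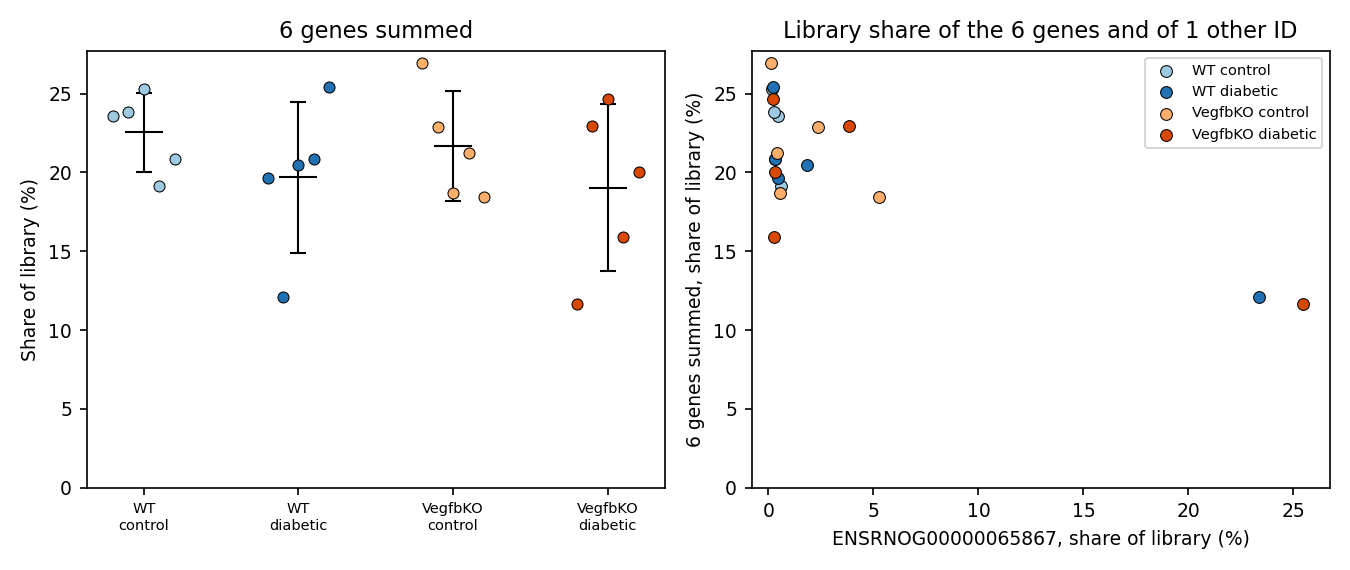
Share of library taken by the 6 genes summed. Left, each point is a library (n = 5 per group), with the bar at the mean and whiskers of 1 SD. Right, the same shares against the share of ENSRNOG00000065867 in each library, where WT diabetic replicate 2 (23.3%) and VegfbKO diabetic replicate 1 (25.5%) lie apart at the lowest summed shares (12.1 and 11.6%).

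With diabetes, 1 of the 6 messages fell past the test in each genotype, and that message was Mt-cyb. Calls came from edgeR's quasi-likelihood test over 14293 genes and required an adjusted p (Benjamini-Hochberg) below 0.05 together with a log2 fold change beyond 0.27 in either direction. By this rule 13.1% of all genes were called with diabetes in WT rats and 7.84% in VegfbKO rats, so 1 of 6 members did not set the list apart from other genes in either genotype.

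Mt-cyb encodes cytochrome b, the subunit that carries both quinone-binding sites of complex III. Its TMM CPM was 29429, 29247, 32703, 25972 and 26370 in WT control rats. It was 23102, 18540, 20930, 21734 and 26548 in WT diabetic rats. Replicates 1 to 4 of the WT diabetic group lay below every WT control, while replicate 5 lay above WT control replicates 4 and 5. In VegfbKO control rats Mt-cyb stood at 32405, 29418, 26434, 28475 and 26394 TMM CPM. In VegfbKO diabetic rats it stood at 18545, 24559, 20992, 19678 and 21799. All 5 VegfbKO diabetic values lay below all 5 VegfbKO control values.

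With diabetes the fitted level of Mt-cyb in WT rats fell by 22.9%, a log2 fold change of -0.37 (SE 0.11, adjusted p = 0.0238 in edgeR's quasi-likelihood test, adjusted by Benjamini-Hochberg). In VegfbKO rats it fell by 26.2%, a log2 fold change of -0.44 (SE 0.11, adjusted p = 0.0133, the same edgeR test). As a share of the library, Mt-cyb fell from 2.93 ± 0.127% to 2.23 ± 0.503% (SD, n = 5) in WT rats and from 2.85 ± 0.186% to 2.14 ± 0.487% in VegfbKO rats. The diabetic means include the pair of libraries that stood apart, at 1.35 and 1.29%, and without them they were 2.45% in WT and 2.36% in VegfbKO rats. On this scale, a measure added after the values were seen, Mt-cyb was the 1 member of 6 whose control and diabetic groups did not overlap in either genotype, where 4.6% of all genes did not overlap in WT and 3.01% did not in VegfbKO rats. Whether such a fall reflects fewer cells of a type or less RNA per cell cannot be told apart in whole ventricle.

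The call in WT rats rested on single libraries. The adjusted p of edgeR's test became 0.065 without WT control replicate 1, 0.0648 without WT control replicate 3 and 0.0611, 0.0536 and 0.0623 without replicates 2, 3 and 4 of the WT diabetic group, within a range of 0.0105 to 0.065 over the 20 libraries left out in turn. The log2 fold change stayed between -0.45 and -0.32 in these fits. In VegfbKO rats the adjusted p stayed between 0.00776 and 0.0427. With library totals alone in place of TMM the call ended in both genotypes, at a log2 fold change of -0.40 (adjusted p = 0.379 in edgeR) in WT and -0.41 (adjusted p = 0.474) in VegfbKO rats, while the other 9 alternatives gave adjusted p values of 0.00188 to 0.0428 in WT and of 0.000188 to 0.0362 in VegfbKO rats.

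**Figure D2:**
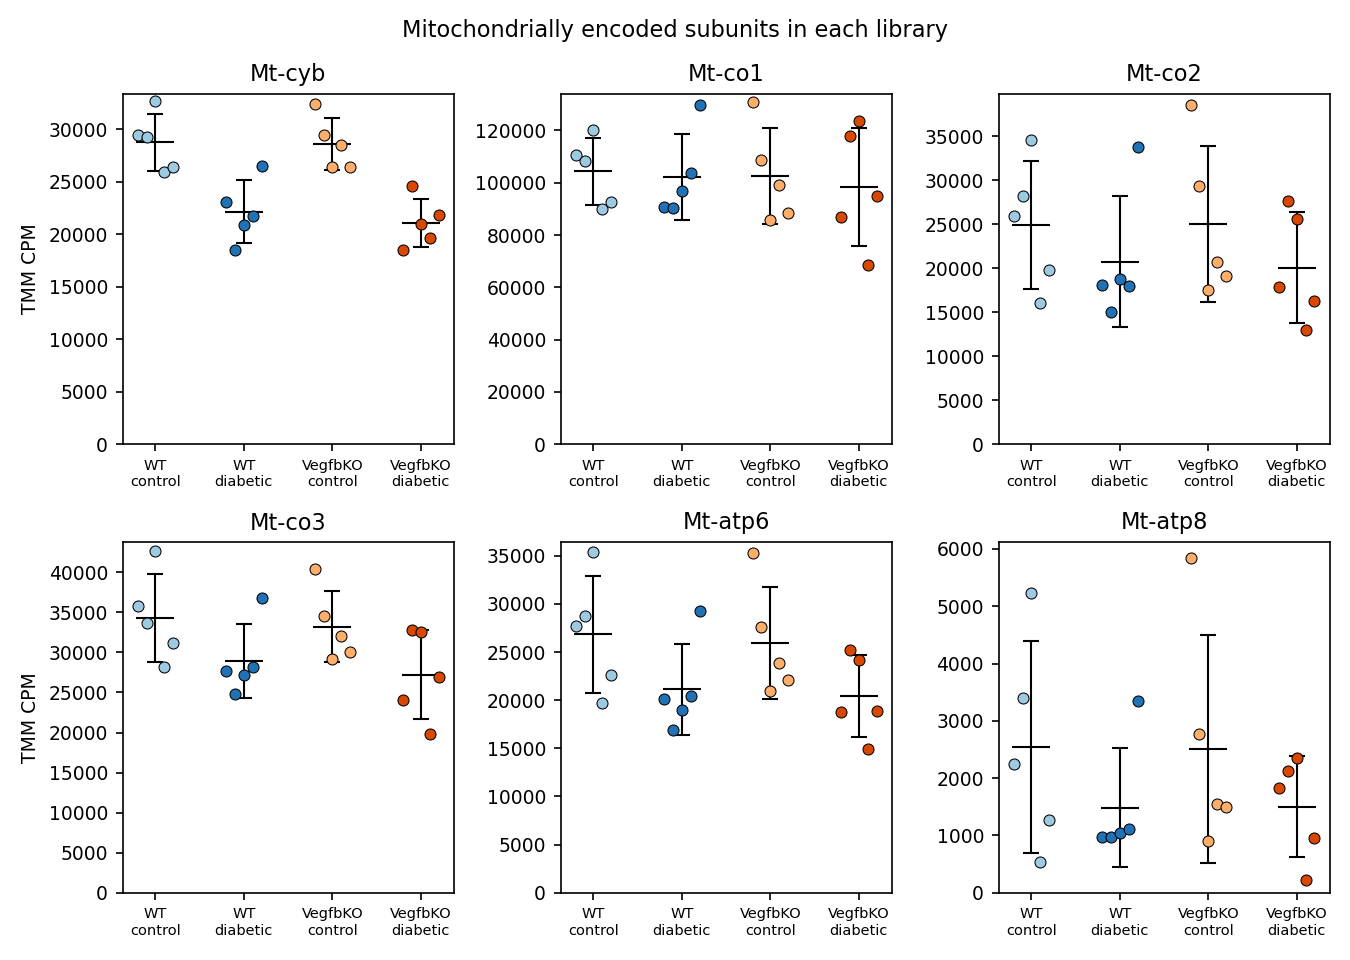
TMM CPM of each gene in each library. Points are libraries (n = 5 per group, replicates 1 to 5 from left to right), the bar is the group mean and the whiskers are 1 SD. Mt-cyb separates VegfbKO diabetic from VegfbKO control rats and overlaps in WT rats through WT diabetic replicate 5 (26548), while the groups overlap for the other genes.

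The complex IV subunits did not pass the test. Mt-co1 encodes the subunit that holds the site of oxygen reduction. It measured 110791, 108414, 120113, 89791 and 92579 TMM CPM in WT control rats and 90680, 90168, 96927, 103836 and 129826 in WT diabetic rats. In VegfbKO rats it measured 131007, 108580, 85856, 99257 and 88253 in controls and 86864, 117739, 123746, 68681 and 94979 after STZ. The groups overlapped widely, with the lowest value in VegfbKO diabetic replicate 4 and the highest in VegfbKO control replicate 1. The log2 fold change with diabetes was -0.03 (95% confidence interval -0.35 to 0.29; adjusted p = 0.937 in edgeR's test) in WT and -0.06 (-0.38 to 0.26; adjusted p = 0.872) in VegfbKO rats. The sign in WT turned without the pair of libraries that stood apart (0.011), without WT control replicate 1 (0.0045) or 3 (0.027), and without WT diabetic replicate 1 (0.012) or 2 (0.014). In VegfbKO rats it turned without VegfbKO control replicate 1 (0.043) or VegfbKO diabetic replicate 4 (0.051). Over the 20 libraries left out in turn it ran from -0.13 to 0.027 in WT and from -0.16 to 0.051 in VegfbKO rats.

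Mt-co2 encodes the subunit that receives electrons from cytochrome c. Its TMM CPM was 25955, 28214, 34613, 16055 and 19746 in WT control rats and 18100, 14980, 18725, 18038 and 33784 in WT diabetic rats. The VegfbKO control values were 38576, 29339, 17498, 20704 and 19086, and the VegfbKO diabetic values were 17873, 27657, 25567, 12948 and 16311. WT diabetic replicate 5 stood far above the other WT diabetic rats, and the groups overlapped in both genotypes. The log2 fold change with diabetes was -0.27 (SE 0.27, adjusted p = 0.576 in edgeR's test) in WT and -0.32 (SE 0.27, adjusted p = 0.545) in VegfbKO rats. It depended on single libraries: in WT it was -0.12 without WT control replicate 3, and leaving out WT diabetic replicate 2 gave -0.17, or replicate 5 of that group -0.51; in VegfbKO rats it was -0.11 without VegfbKO control replicate 1 and -0.19 without VegfbKO diabetic replicate 4.

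Mt-co3 encodes the remaining core subunit of complex IV. It had 35831, 33649, 42644, 28168 and 31211 TMM CPM in WT control rats and 27663, 24831, 27177, 28127 and 36820 in WT diabetic rats. In VegfbKO rats it had 40359, 34493, 29176, 32039 and 30059 in controls and 24034, 32771, 32531, 19804 and 26879 after STZ. WT diabetic replicates 1 to 4 lay below the lowest WT control, whereas replicate 5 exceeded all but 1 of the WT controls. The log2 fold change with diabetes was -0.25 (SE 0.15, adjusted p = 0.293 in edgeR's test) in WT and -0.29 (SE 0.15, adjusted p = 0.253) in VegfbKO rats. Without WT control replicate 3 it was -0.16 in WT, and without VegfbKO diabetic replicate 4 it was -0.19 in VegfbKO rats.

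The ATP synthase subunits are encoded by overlapping reading frames on a shared message, so reads from the overlap could be assigned to either gene and the split between them is uncertain. Mt-atp6 encodes the subunit that forms the proton path beside the rotating ring. Its TMM CPM was 27675, 28772, 35408, 19687 and 22617 in WT control rats and 20119, 16879, 18961, 20447 and 29241 in WT diabetic rats. The VegfbKO control values were 35331, 27644, 20941, 23819 and 22051, and the VegfbKO diabetic values were 18808, 25226, 24189, 14965 and 18914. Both pairs of groups overlapped. The log2 fold change of Mt-atp6 with diabetes was -0.34 (SE 0.18, adjusted p = 0.223 in edgeR's test) in WT and -0.35 (SE 0.18, adjusted p = 0.27) in VegfbKO rats. Without WT control replicate 3 it was -0.22 in WT, and without VegfbKO control replicate 1 it was -0.21 in VegfbKO rats.

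Mt-atp8 encodes a small accessory subunit of the membrane part of ATP synthase, and it varied far more between libraries than the other members. It measured 2244, 3407, 5239, 545.2 and 1270.1 TMM CPM in WT control rats and 964.8, 972.2, 1036, 1105 and 3343 in WT diabetic rats. In VegfbKO rats it measured 5841, 2775, 896.8, 1542 and 1489 in controls and 1828, 2124, 2346, 231.4 and 962.8 after STZ. Its highest value, in VegfbKO control replicate 1, was 25.2 times its lowest, in VegfbKO diabetic replicate 4, whereas the same quotient lay between 1.76 and 2.98 for the other 5 genes. The size of that quotient rested on VegfbKO diabetic replicate 4 (231.4), since the next lowest value was 545.2, in WT control replicate 4. The coefficient of variation within a group was 58.9 to 79.1% for Mt-atp8, compared with 8.68 to 13.3% for Mt-cyb. In WT diabetic rats the 70.1% of Mt-atp8 rested on replicate 5 (3343), as the other values lay between 964.8 and 1105. The log2 fold change with diabetes was -0.78 (95% confidence interval -2.21 to 0.66, adjusted p = 0.51 in edgeR's test) in WT and -0.74 (-2.18 to 0.69, adjusted p = 0.581) in VegfbKO rats, so the spread between libraries left both falls and rises within the interval. In WT it was -0.33 without WT control replicate 3 and -1.32 without WT diabetic replicate 5, and in VegfbKO rats -0.16 without VegfbKO control replicate 1 and -0.46 without VegfbKO diabetic replicate 4. With a replicate block in the model it was -0.42 in WT and -0.95 in VegfbKO rats.

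The count of Mt-atp8 as a percentage of that of Mt-atp6 does not depend on library scaling. It was 8.11, 11.8, 14.8, 2.77 and 5.62% in WT control rats and 4.80, 5.76, 5.46, 5.40 and 11.4% in WT diabetic rats. In VegfbKO rats it was 16.5, 10.04, 4.28, 6.47 and 6.75% in controls and 9.72, 8.42, 9.70, 1.55 and 5.09% after STZ. The ratio was highest in VegfbKO control replicate 1 and WT control replicate 3 and lowest in VegfbKO diabetic replicate 4 and WT control replicate 4, and all groups overlapped. By a two-sided exact permutation test on the log2 ratio (5 rats against 5, smallest possible p 0.00794), the difference with diabetes was -0.25 in WT (p = 0.611) and -0.46 in VegfbKO rats (p = 0.508). The difference between genotypes was 0.10 in controls (exact permutation p = 0.857) and -0.12 in diabetic rats (exact permutation p = 0.865). Each sign turned with 1 library left out: with diabetes in WT without WT control replicate 3 (0.0011, within -0.60 to 0.0011 over the 20 libraries) and in VegfbKO without VegfbKO diabetic replicate 4 (0.010, within -0.68 to 0.010). Between genotypes it turned in controls without WT control replicate 4 (-0.26) or 5 (-0.00090) or VegfbKO control replicate 1 (-0.17), within -0.26 to 0.35, and in diabetic rats without WT diabetic replicate 5 (0.10) or VegfbKO diabetic replicate 4 (0.36), within -0.31 to 0.36. Adjusted over the 4 comparisons, the Benjamini-Hochberg p of this permutation test was 0.865 in each.

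**Figure D3:**
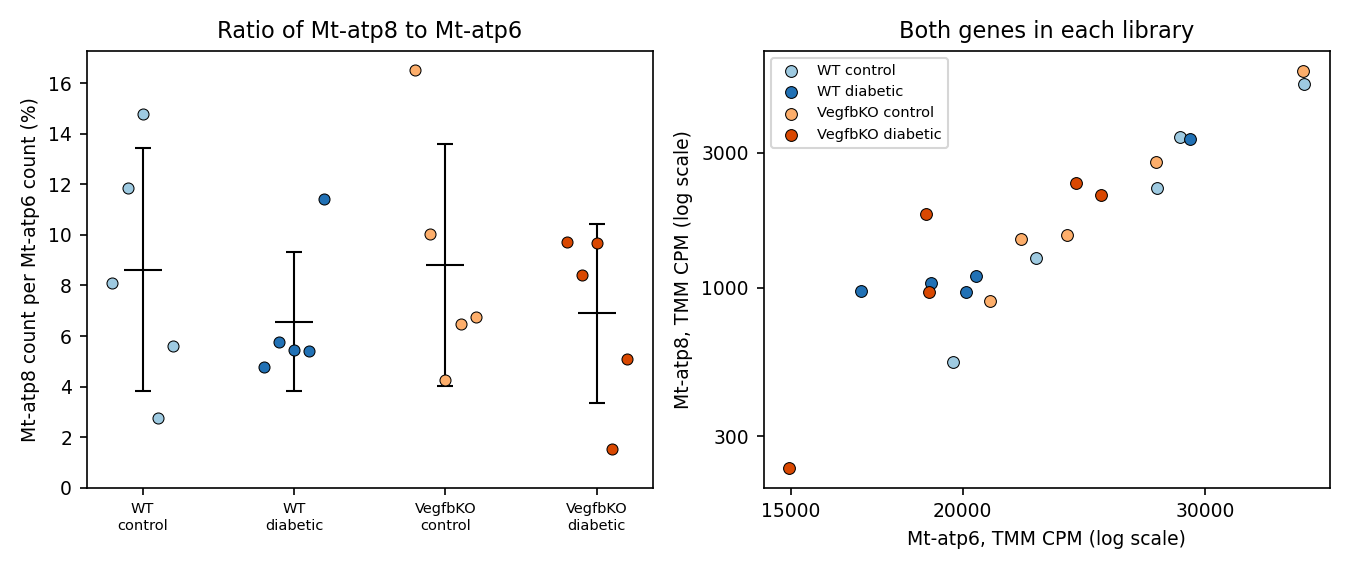
Mt-atp8 and Mt-atp6 in each library. Left, the count of Mt-atp8 as a percentage of that of Mt-atp6 by group (points are libraries, n = 5 per group; bar, mean; whiskers, 1 SD). Right, TMM CPM of both genes on log axes, where Mt-atp8 spans 231.4 to 5841 while Mt-atp6 spans 14965 to 35408.

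Within the 6 genes, the makeup shifted towards Mt-co1 with diabetes. Mt-co1 supplied 47.8, 46.8, 44.4, 49.8 and 47.8% of the summed count in WT control rats and 50.2, 54.2, 52.7, 53.7 and 50.02% in WT diabetic rats. It supplied 46.2, 46.8, 47.5, 48.2 and 47.1% in VegfbKO control rats and 51.7, 51.2, 54.0, 50.4 and 52.8% in VegfbKO diabetic rats. Every diabetic rat lay above every control of its genotype, with means ± SD (n = 5) of 47.3 ± 1.98% against 52.2 ± 1.96% in WT and 47.2 ± 0.760% against 52.0 ± 1.40% in VegfbKO rats. Because the shares add up, this is the counterpart of lower shares of the other genes, and neither the TMM CPM nor the library share of Mt-co1 separated the groups.

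The share of Mt-atp6 within the 6 was 11.9, 12.4, 13.1, 10.9 and 11.7% in WT control rats and 11.1, 10.1, 10.3, 10.6 and 11.3% in WT diabetic rats. It was 12.5, 11.9, 11.6, 11.6 and 11.8% in VegfbKO control rats and 11.2, 10.96, 10.5, 10.98 and 10.5% in VegfbKO diabetic rats. The groups did not overlap in VegfbKO rats, while in WT rats the lowest control, replicate 4, lay below diabetic replicates 1 and 5. The share of Mt-cyb within the 6 overlapped in both genotypes, at 13.1 ± 0.924% against 11.4 ± 0.920% (SD, n = 5) in WT and 13.3 ± 1.28% against 11.5 ± 1.96% in VegfbKO rats. Control and diabetic groups thus stood apart in makeup for 1 of 6 members in WT and 2 of 6 in VegfbKO rats. When the count of each of the 14293 genes was divided by the summed count of the 6, 3.83% of genes did not overlap in WT (464 higher and 83 lower with diabetes) and 3.15% in VegfbKO rats (408 higher and 42 lower). For the members this is not a like measure, because they are parts of the sum that divides them and their shares add up. Neither the number of members apart nor their directions can therefore be judged by it. The shares within the 6 were compared without a test, since the measure was chosen after the values were seen.

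**Figure D4:**
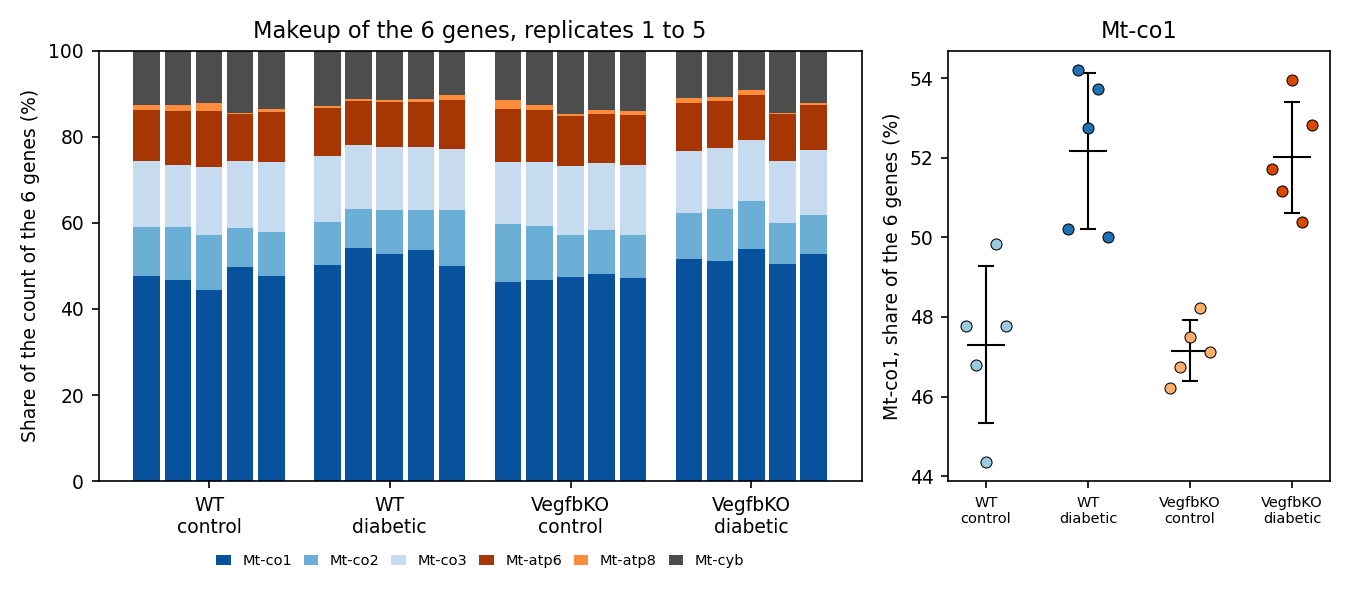
Makeup of the summed count of the 6 genes. Left, each bar is a library, replicates 1 to 5 in each group, divided into the percentage from each gene. Right, the percentage from Mt-co1 by group (points are libraries, n = 5 per group; bar, mean; whiskers, 1 SD; the axis does not start at 0), which was 44.4 to 49.8% in WT control and 50.02 to 54.2% in WT diabetic rats, and 46.2 to 48.2% in VegfbKO control and 50.4 to 54.0% in VegfbKO diabetic rats.

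Across the list, the fitted log2 fold change with diabetes was negative for 6 of 6 members in both genotypes, where 48.3% of all genes tested were negative in WT and 48.5% in VegfbKO rats. The sign of Mt-co1 turned in both genotypes with libraries left out, as given above. The members are not independent, since they moved together across libraries (r of 0.671 to 0.987 with groups centred) and share a scaling factor in each library. A sign shared by all 6 therefore does not count as 6 separate results. The median log2 fold change over the members was -0.31 in WT and -0.33 in VegfbKO rats, against 0.01 and 0.01 over all genes tested. These medians depended on single libraries. Without WT control replicate 3 the middle members in WT were Mt-co3 (-0.16) and Mt-atp6 (-0.22). Leaving out WT diabetic replicate 5 instead, they were Mt-cyb (-0.45) and Mt-atp6 (-0.49). In VegfbKO rats the middle members were Mt-atp8 (-0.16) and Mt-co3 (-0.21) without VegfbKO control replicate 1. In TMM CPM the control and diabetic groups did not overlap for 0 of 6 members in WT, compared with 9.38% of all genes, and for 1 of 6 in VegfbKO rats, compared with 8.21% of all genes.

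The mean of both diabetes contrasts, a comparison added after the values were seen, used all 20 libraries for a single estimate. Mt-cyb was again the 1 member of 6 called, where 16.2% of all genes were called, with a log2 fold change of -0.41 (95% confidence interval -0.57 to -0.25; adjusted p = 0.000429 in edgeR's test). It was called with any 1 library left out, and the call ended only with library totals alone (adjusted p = 0.0817), among adjusted p values from 7.36e-08 to 0.0817 over the 9 alternatives that did not leave out 1 library. Mt-atp6 missed the threshold at -0.35 (-0.61 to -0.08; adjusted p = 0.0516 in edgeR's test), as did Mt-co3 at -0.267 (-0.48 to -0.05; adjusted p = 0.0629), which also fell short of the fold change of 0.27. Mt-atp6 was called by DESeq2 (adjusted p = 0.0256) and in edgeR without WT control replicate 4 (0.0271) or 5 (0.0468), WT diabetic replicate 5 (0.0148), VegfbKO control replicate 3 (0.0365) or 5 (0.0478), or VegfbKO diabetic replicate 2 (0.0335) or 3 (0.0446). Its adjusted p ranged from 0.0148 to 0.112 with 1 library left out and from 0.0256 to 0.192 over the other 9 alternatives. Mt-co3 was called in edgeR without WT control replicate 4 (adjusted p = 0.0427), WT diabetic replicate 5 (0.0256), VegfbKO diabetic replicate 2 (0.0381) or VegfbKO diabetic replicate 3 (0.0431). DESeq2 gave Mt-co3 an adjusted p of 0.0313, but its log2 fold change of -0.265 missed 0.27, so it was not called, and in the rest of these 9 alternatives the adjusted p was above 0.05, up to 0.323. Mt-co1, Mt-co2 and Mt-atp8 were not called, with adjusted p values of 0.81, 0.293 and 0.28 in edgeR.

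**Figure D5:**
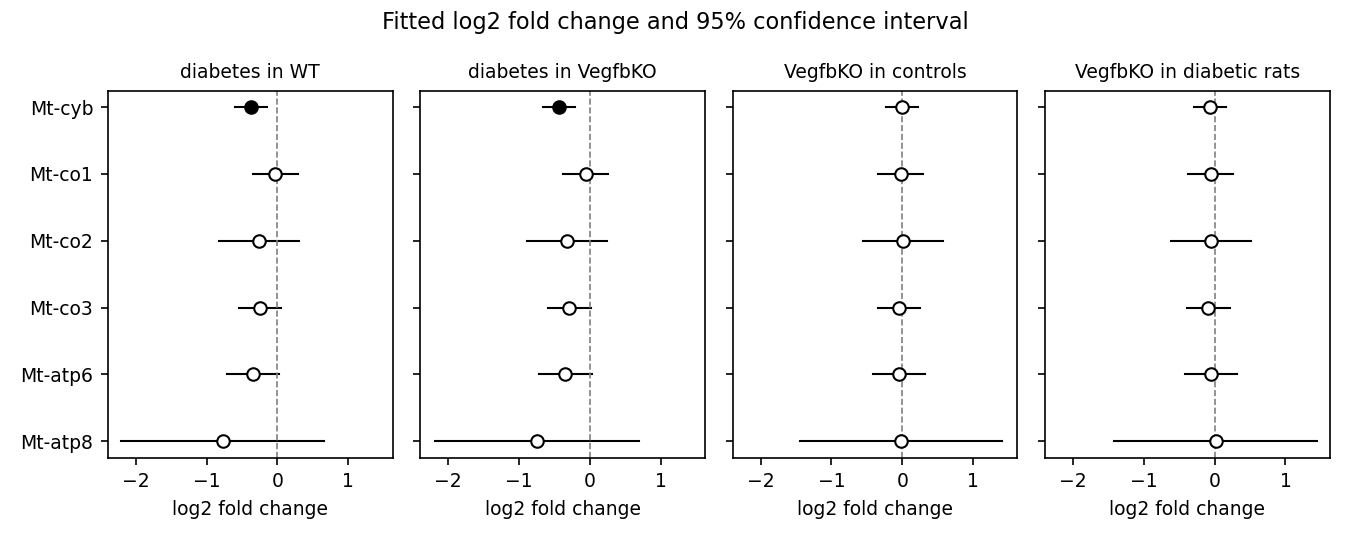
Fitted log2 fold change of each gene (points) with its 95% confidence interval (lines) in edgeR's quasi-likelihood model over 20 libraries. Filled points are called and open points are not. Mt-cyb is called with diabetes in WT (-0.37) and in VegfbKO rats (-0.44), and the intervals of Mt-atp8 are the widest of the 6 in each panel.

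Loss of Vegfb was not accompanied by a detectable change in any member. In control rats 0 of 6 members were called in edgeR, where 0.028% of all genes were, and the log2 fold changes of VegfbKO against WT lay between -0.05 (Mt-atp6) and 0.01 (Mt-co2). In diabetic rats 0 of 6 members were called, where 0.042% of all genes were, with log2 fold changes between -0.09 (Mt-co3) and 0.01 (Mt-atp8). At an unadjusted p under 0.05 in edgeR there were 0 members in either comparison, where 3.69% of all genes were in controls and 8.99% in diabetic rats. DESeq2 called 0 members as well, and 0.035% and 0.455% of all genes. The tightest interval was that of Mt-cyb, at -0.23 to 0.22 in controls and -0.30 to 0.16 in diabetic rats, and the widest that of Mt-atp8, at -1.45 to 1.41 and -1.41 to 1.44. In TMM CPM the genotypes overlapped for all members, where 1.02% of all genes did not overlap in controls and 0.986% did not in diabetic rats.

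The response to diabetes was also compared between genotypes as an interaction. There were 0 members called in edgeR, where 0% of all genes were called at an adjusted p under 0.05 and 4.2% had an unadjusted p under 0.05, and 0 members reached an unadjusted p under 0.05. DESeq2 called 0 genes. The difference between the log2 fold changes was -0.06 (95% confidence interval -0.39 to 0.26) for Mt-cyb and -0.03 (-0.48 to 0.42) for Mt-co1. The comparisons with diabetes in WT and in VegfbKO rats used different rats throughout, whereas each genotype comparison shared its libraries with the diabetes comparisons.

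The members rose and fell together from library to library. VegfbKO diabetic replicate 4 had the lowest TMM CPM of all 20 libraries for 5 of the 6 genes, and WT diabetic replicate 2 had the lowest for Mt-cyb. The highest values came from VegfbKO control replicate 1 (Mt-co1, Mt-co2 and Mt-atp8) or WT control replicate 3 (Mt-co3, Mt-atp6 and Mt-cyb). With each group centred on its own mean, Pearson's r between log2 TMM CPM of 2 members over the 20 libraries ran from 0.671 (Mt-atp8 with Mt-cyb) to 0.987 (Mt-co2 with Mt-atp6) over the 15 pairs, given as a description because the pairs share a scaling factor in each library. Spearman's rho for the same pairs was 0.677 and 0.958. Without the 2 libraries farthest from the median of the first gene, r was 0.661 and 0.981.

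The spread of the members within groups was set beside that of the 1132 genes with a mean of at least 100 TMM CPM, whose median SD was 0.150 on the log2 scale. The within-group SD of Mt-cyb was 0.153, close to that median. It was 0.237 for Mt-co3, 0.254 for Mt-co1, 0.309 for Mt-atp6 and 0.455 for Mt-co2. Mt-atp8 had an SD of 1.14, and only 7 of these genes varied more.

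Of 7976 other genes with at least 10 TMM CPM on average, the pattern of ENSRNOG00000029707 was most like the mean log2 TMM CPM of the 6 members across the 20 libraries, with an r of 0.983 (0.979 with groups centred). ENSRNOG00000029042 followed at 0.961 (0.956). The least alike were ENSRNOG00000003226, with an r of -0.794 (-0.760 with groups centred), and ENSRNOG00000017489, with an r of -0.747 (-0.697). These values describe the libraries, with no p, and the IDs carry no gene names in the tables at hand.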

How the data were processed

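The deposited values were estimated counts per Ensembl gene ID, made by the authors from paired-end reads of directional libraries (NEBNext Ultra II) sequenced on an Illumina NextSeq 500. The submitters' processing notes name kallisto, edgeR and DESeq2 and the build mRatBN7.2, without versions. Whether ribosomal RNA was depleted or poly(A) RNA selected, which bears on mitochondrial RNA, is not given in the sources used here. Of 337138 nonzero deposited values, 0 were exactly whole and 1.47% lay within 0.001 of a whole number, so rounding preceded every step. Samples were grouped by their labels, 1 library per rat.

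The analysis used edgeR 4.0.16 (R 4.3.3): filterByExpr by group (14293 genes kept, all 6 members among them), TMM, and a robust quasi-likelihood fit over 20 libraries with a mean for each of 4 groups. Standard errors were derived from the F statistic. The 5 planned contrasts and 1 added contrast were adjusted by Benjamini-Hochberg over all genes tested. Alternatives were DESeq2 1.42.0, other scalings, no filter on low counts, only the 10 libraries compared, a replicate block and libraries left out. The code was tested on simulated data. Figures were drawn with matplotlib 3.10.9.

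The members, lists and tests were chosen with earlier results of these data known. The named genes are the 6 members and, by rule, the 2 most and the 2 least alike IDs (r to the mean of the members, prior count 2); ENSRNOG00000065867, ENSRNOG00000070284 and ENSRNOG00000062930 were singled out from their values. No Ensembl ID appears among the 47357 genes of the RefSeq table used here (0 IDs matched), so the names of the members come from the list that chose them, and lists of nuclear subunits, assembly factors and cell type markers chosen by symbol were not analysed here. Every pair of libraries within a group differed by more than sampling noise (chi-square per gene at least 5.93), so none was treated as a duplicate. With 5 rats per group and totals from 7220469 to 26664479, the spread between rats, not counting error, limits the precision for these abundant genes.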

Additional observations from a re-analysis of the deposited data

Results flagged for a closer look

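In 84 sets of 5 values (TMM CPM, library share and makeup of each member, the summed share and summed TMM CPM, and the ratio of Mt-atp8 to Mt-atp6, each in 4 groups), 10 had a highest or lowest library whose gap to its nearest neighbour exceeded Dixon's 95% limit as a fraction of the range. Chance flags about 1 in 20 such sets, and the sets are not independent, since the members moved together and the measures share counts. No cause was tested.

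Of the 10, 8 were the highest value of WT diabetic replicate 5. In TMM CPM its gap was 0.801 of the range for Mt-co2 (33784 against the next value of 18725), 0.725 for Mt-co3 (36820 against 28127), 0.711 for Mt-atp6 (29241 against 20447), 0.941 for Mt-atp8 (3343 against 1105) and 0.711 for the 6 genes summed (259562 against 193286). For Mt-atp8 it was also 0.812 as a share of the library, 0.933 as a share of the 6 genes (1.29% against 0.584%) and 0.855 as a ratio to Mt-atp6 (11.4% against 5.76%).

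The other 2 were low library shares of Mt-cyb, in WT diabetic replicate 2 (1.35% against the next value of 2.33%, a gap of 0.781 of the range) and in VegfbKO diabetic replicate 1 (1.29% against 2.26%, 0.836 of the range). These are the libraries in which ENSRNOG00000065867 held 23.3 and 25.5% of the count; in TMM CPM their Mt-cyb values were 18540 and 18545, next to 20930 and 19678 in the nearest rats of their groups. No member passed the interaction of genotype and diabetes.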

How the results depend on the processing

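Mt-cyb was lower with diabetes in both genotypes under all 10 alternatives and with each of the 20 libraries left out, and it was called in 9 of the 10 alternatives in each genotype. With library totals alone the number of members called became 0 in WT, in VegfbKO and in the mean of both contrasts. There 687 genes of all kinds were called in WT against 1876, and 276 in VegfbKO against 1121, of which 61.2% were higher against 46.3%. The mean contrast had 1427 against 2317, and VegfbKO in diabetic rats had 3 against 6. ENSRNOG00000065867 held 23.3 and 25.5% of the totals in the libraries with TMM factors of 0.729 and 0.693, and 5.28% or less in the others. DESeq2 called 2 members in the mean contrast, where it called 17.1% of all genes, and for VegfbKO in diabetic rats 65 genes against 6, while the fit of only the 10 libraries compared called 3. Leaving out each library in turn gave 0 to 1 members called with diabetes in WT, where 9.99 to 15.9% of all genes were called, and 1 to 3 in the mean contrast, where 14.2 to 17.4% were. With diabetes in VegfbKO, 643 genes of all kinds were called against 1121 without VegfbKO diabetic replicate 3. For VegfbKO in diabetic rats it gave 2 to 181 genes, with 181 without WT diabetic replicate 3. Members called were otherwise as in the report, and the cause of these changes was not tested.

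Small fold changes that were not called changed sign. With library totals alone the log2 fold change was -0.025 for Mt-co2 (VegfbKO in controls), -0.025 for Mt-atp8 (VegfbKO in diabetic rats), and, for the interaction, 0.017 for Mt-co1, 0.0012 for Mt-co3 and 0.034 for Mt-atp6. With upper quartile scaling the interaction of Mt-atp6 was 0.0065. Without WT diabetic replicate 2 and VegfbKO diabetic replicate 1, Mt-co1 was 0.011 with diabetes in WT, and Mt-atp8 was -0.19 for VegfbKO in diabetic rats and -0.17 for the interaction. With 1 library left out in turn, Mt-co1 ran from -0.13 to 0.027 with diabetes in WT, -0.16 to 0.051 in VegfbKO and -0.095 to 0.015 in the mean contrast. For VegfbKO in controls the ranges were -0.054 to 0.045 for Mt-cyb, -0.13 to 0.034 for Mt-co1, -0.20 to 0.16 for Mt-co2, -0.13 to 0.045 for Mt-co3, -0.18 to 0.073 for Mt-atp6 and -0.60 to 0.43 for Mt-atp8. For VegfbKO in diabetic rats they were -0.13 to 0.0026 for Mt-cyb, -0.15 to 0.045 for Mt-co1, -0.19 to 0.20 for Mt-co2, -0.16 to 0.014 for Mt-co3, -0.14 to 0.096 for Mt-atp6 and -0.21 to 0.56 for Mt-atp8. For the interaction they were -0.12 to 0.0084 for Mt-cyb, -0.13 to 0.073 for Mt-co1, -0.20 to 0.19 for Mt-co2, -0.13 to 0.059 for Mt-co3, -0.12 to 0.14 for Mt-atp6 and -0.41 to 0.61 for Mt-atp8. The log2 difference in the ratio of Mt-atp8 to Mt-atp6 ran from -0.60 to 0.0011 with diabetes in WT, -0.68 to 0.010 in VegfbKO, -0.26 to 0.35 for VegfbKO in controls and -0.31 to 0.36 in diabetic rats, and no exact permutation test passed. The summed share of each group moved by less than its SD.

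No clear pairing of rats by replicate number was seen. Of 30 same-number pairs of libraries, 10 had deviations from their group means that correlated above 0.1 (range -0.257 to 0.264), and 5 of 20 libraries correlated best with their own number. Such correlations cannot exclude pairing. With a replicate block, Mt-cyb was called with diabetes in WT at -0.37 and in VegfbKO at -0.44, the number of genes called was 1785 and 1048, and the log2 fold change of Mt-atp8 was -0.42 with diabetes in WT, -0.95 with diabetes in VegfbKO, 0.17 for VegfbKO in controls, -0.37 for VegfbKO in diabetic rats and -0.53 for the interaction.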
